A study of Mus musculus with 2 samples.

Results

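The genes described here are those carried by the mouse mitochondrial genome. They were taken as every row of the deposited count table whose symbol starts with mt-, which gave 35 of 49315 genes, namely 13 protein-coding and 22 transfer RNA genes. The ribosomal RNA genes mt-Rnr1 and mt-Rnr2 had no row under these symbols, so they were not analysed here. RNA was sequenced from cells labelled as macrophages of the dorsal root ganglion, where the cell bodies of sensory nerves lie next to the spinal cord, in 2 libraries. One came from mice under chronic intermittent hypoxia, in which chamber oxygen fell from about 21% to 8% and back every 6 min (10 cycles per hour) for 8 h a day over 14 days. The other came from sham-treated mice in the same kind of chamber, kept at about 21% oxygen throughout (normoxia). Experiments followed the final exposure by about 18 h. The sources used here do not give the strain, genotype, sex or age of the mice, how many gave each library, or how macrophages were isolated. The count column used for hypoxia carries the initial of that treatment and a number found in no label, so it was assigned by its initial alone. With 1 library per group no difference has a replicate check, no test across conditions was possible, and every interval covers counting error only.

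The mitochondrial genome is a small circle from which both strands are transcribed as long precursors. Transfer RNAs lie between most of the other genes, and cutting them out releases the messengers and ribosomal RNAs. All its proteins are subunits of the respiratory chain or the ATP synthase, and each of them works beside subunits made from nuclear genes. The genes encoded on the light strand are mt-Nd6 and 8 transfer RNA genes, and the other 26 members are on the heavy strand.

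Depth was 2171348 counts in normoxia and 145056 in hypoxia, 15.0-fold apart, and 1158 genes were counted in both. Ratios are hypoxia over normoxia after TMM scaling (trimmed mean of M values), and values on total counts are given where they change a statement. A gene counted at least 50 times in the pair of libraries was taken as measured, and it was called lower or higher when its ratio was at least 2-fold away from 1 and its exact 95% interval on reads excluded 1. A second interval was taken on estimated starting molecules, at 229 reads per molecule in normoxia and 39 in hypoxia. These are the median counts of genes with at least 10 counts in 1 library and 0 in the other, and the estimate is untested. Macrophage markers Adgre1, Cd68, Csf1r, C1qa, C1qb, C1qc and Fcgr1 all had 0 counts in hypoxia and between 377 and 1764 in normoxia, and Aif1 and Mertk had none in either library. Of the same list Cx3cr1 had 1170 counts in normoxia and 6 in hypoxia, Itgam had 117 and 40 and was called higher (ratio 2.93), and Lyz2 had 34028 and 3164. The list took 1.99% and 2.21% of counts, mostly from Lyz2. Neutrophil markers took 1.69% of counts in normoxia and 9.32% in hypoxia, with Mmp8 and Mmp9 at 0 in hypoxia and Ly6g at 0 in normoxia. Red cell genes took 10.5% and 8.23%. Of 7 sensory neuron markers Isl1 alone was counted, with 0 and 60 counts. Schwann and satellite glia markers took 0.0144% in normoxia and 0.128% in hypoxia, which is 5.07-fold with TMM (0.664 to 107 on molecules), with Mbp at 0 and 58 counts, Glul at 129 and 85, and Sparc at 183 and 42. The part of these shifts in the mitochondrial values was not tested. In such bulk libraries, fewer cells of a type and less RNA per cell cannot be told apart.

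In normoxia 1.86% of counts fell on mitochondrially encoded genes (40413 counts, 95% Clopper-Pearson interval 1.84 to 1.88), and the figure for hypoxia was 0.607% (881 counts, 0.568 to 0.649). With TMM the ratio was 0.187 (0.175 to 0.200 on reads), and on total counts, the plain ratio of these shares, it was 0.326. With TMM and on the 176 and 22.6 estimated molecules the interval was 0.115 to 0.291. On reads the members differed widely among themselves, while the intervals on molecules of the 9 measured ones overlap. The cytochrome b gene mt-Cytb was 14.9-fold lower, the complex I gene mt-Nd5 went from 3430 counts to 0, and mt-Nd6 had a ratio of 1.47. Of the 35 members 12 had counts in normoxia, and 6 of those 12, all protein-coding, had counts in hypoxia too.

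**Figure D1:**
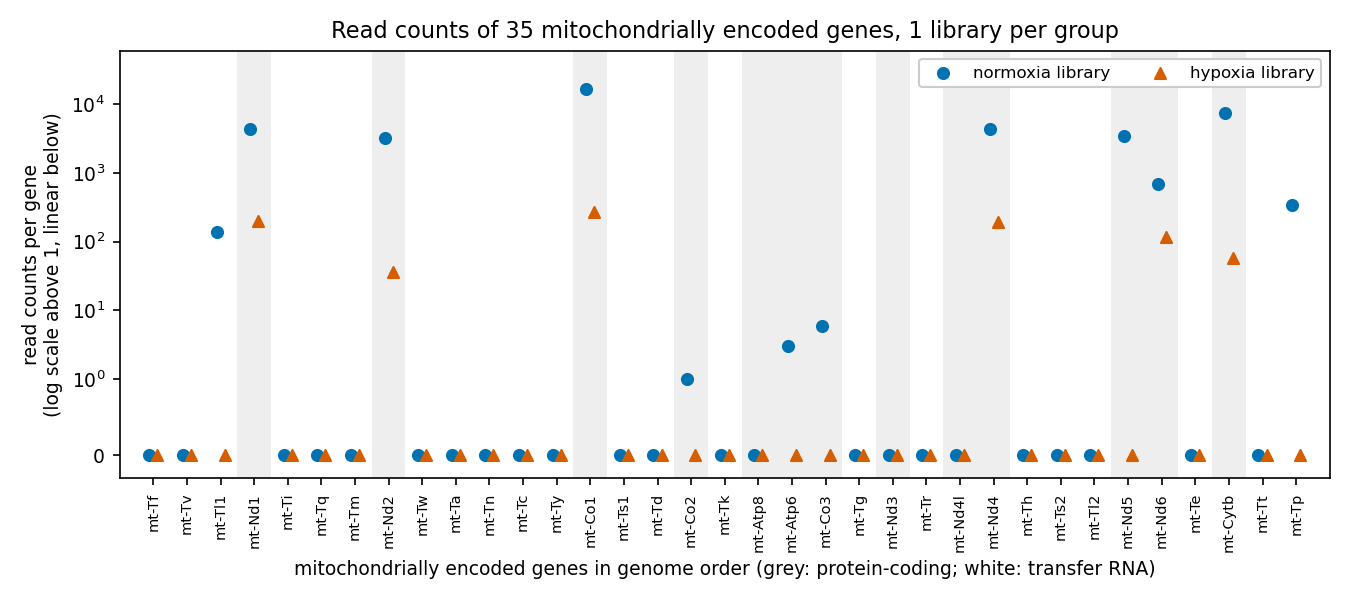
Read counts of each of the 35 mitochondrially encoded genes in the normoxia library (circles) and the hypoxia library (triangles), in genome order, on an axis that is logarithmic above 1 and linear below. Counts of 688 or more in normoxia are seen from mt-Nd1 to mt-Co1 and from mt-Nd4 to mt-Cytb, with mt-Co2, mt-Atp6 and mt-Co3 at 1, 3 and 6 counts between them and 20 transfer RNA genes at 0 in both libraries.

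Before any level is read, the genes differ in how much of their sequence is their own. Parts of the mitochondrial genome have been copied into nuclear chromosomes, and a read from such a stretch matches both places. On GRCm38, GENCODE M21 annotates 7 copies in a row on the minus strand of chromosome 1, between 24611535 and 24616197, a span of 4663 bases. They run from the end of mt-Co1 to the beginning of mt-Nd4 and are annotated as pseudogenes. The following stretches, read from GENCODE M21 transcripts, show how close the copies are. The copy Gm28437 is identical to mt-Co3 over all 783 bases compared, and bases 362 to 421 of both are shown.
mt-Co3: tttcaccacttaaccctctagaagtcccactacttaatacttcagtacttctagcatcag
Gm28437: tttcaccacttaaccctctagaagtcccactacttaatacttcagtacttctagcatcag
The copy Gm28438 differs from mt-Nd3 at 1 of 345 bases, in capitals within the opening 60 bases of both.
mt-Nd3: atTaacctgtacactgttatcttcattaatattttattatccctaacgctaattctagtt
Gm28438: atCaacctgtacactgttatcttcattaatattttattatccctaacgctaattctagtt
The copy Gm29216 covers mt-Co1 from base 1054 to its end at base 1545 and differs at 6 of 492 bases, all in capitals near its start. Bases 1054 to 1113 of mt-Co1 and 1 to 60 of the copy are shown.
mt-Co1: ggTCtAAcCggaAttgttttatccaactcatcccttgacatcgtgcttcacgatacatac
Gm29216: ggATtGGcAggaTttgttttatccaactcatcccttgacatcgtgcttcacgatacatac

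The share of each gene's windows of 100 bases that also occur, on either strand, in an annotated transcript of another gene was 99.9% for mt-Co3, 99.5% for mt-Co2, 99.5% for mt-Atp6, 98.5% for mt-Nd4l and 97.6% for mt-Nd3. These 5 genes held 10 counts together in normoxia and 0 in hypoxia. The share was 60.8% for mt-Nd4, 30.8% for mt-Co1 and 3.19% for mt-Nd2, and 0% for mt-Nd1, mt-Nd5, mt-Nd6 and mt-Cytb, and all 7 of these genes held at least 688 counts in normoxia. With windows of 50 or 150 bases the shares of the same 5 genes were at least 97.0%. The exception was mt-Atp8, which held 0 counts in both libraries although none of its windows occurred in an annotated transcript. It is 204 bases long and shares 43 of them with mt-Atp6. On chromosome 1 the stretch between the copies of mt-Co2 and mt-Atp6, where a copy of mt-Atp8 would lie, is 233 bases long and not annotated, against 230 bases between the 2 genes themselves. Its sequence was not used here.

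The nuclear copies held few counts themselves. Together the 7 copies on chromosome 1 had 234 counts in the normoxia library and none in the other. Gm28438, the copy of mt-Nd3, held 176 of them, while mt-Nd3 itself held 0. Gm29216 held 32, Gm10925, the copy of mt-Atp6, held 12, and Gm28437 held 6. Gm28661, a copy of mt-Co2, and Gm28439, a copy of mt-Nd4, held 4 each. On chromosome 2 Gm13341, also a copy of mt-Co2, held 3 and Gm13340, a copy of mt-Co1, held 1. The sources used here do not say how reads that match 2 places were treated, and the part of the copies in the low counts was not tested. The classes below are therefore known through some of their members only: complex I through 5 of 7, complex IV almost entirely through mt-Co1, and the ATP synthase not at all.

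**Figure D2:**
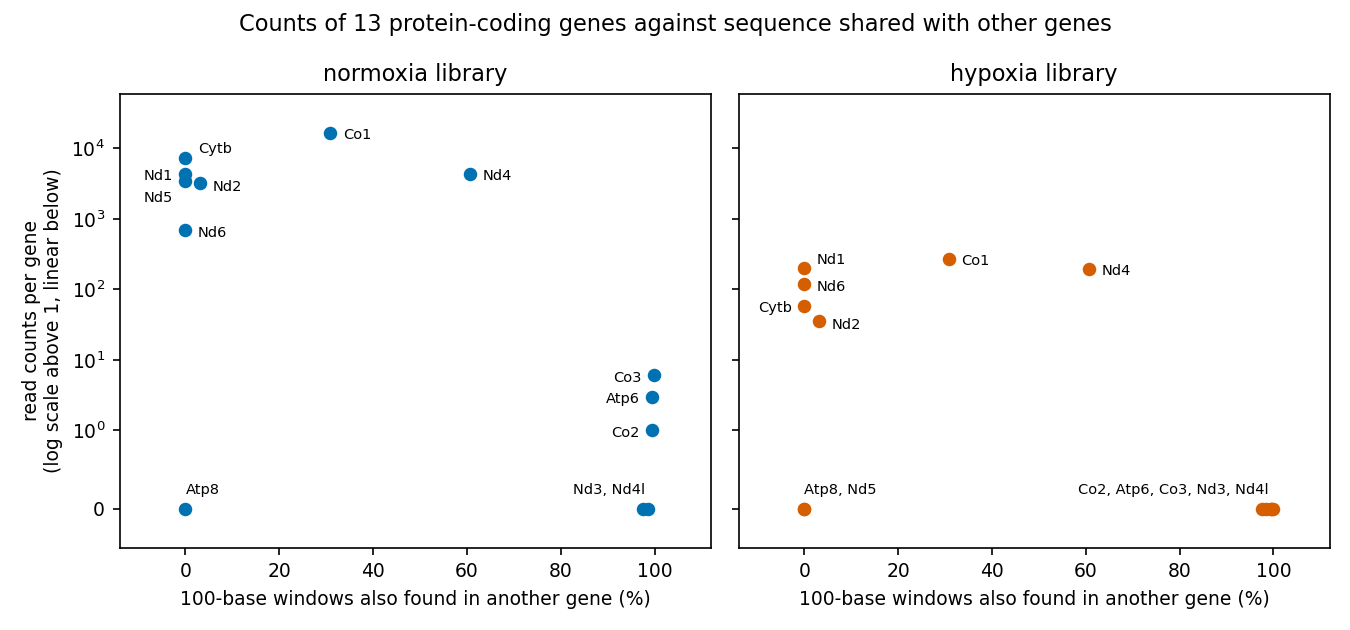
Read counts of the 13 protein-coding genes (logarithmic above 1, linear below) against the percentage of their 100-base windows that also occur in an annotated transcript of another gene, with the normoxia library on the left and the hypoxia library on the right. The 5 genes with at least 97.6% shared windows hold at most 6 counts each, and mt-Atp8 is the only gene at 0% without counts in both libraries.

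Complex I, the NADH dehydrogenase that feeds electrons into the chain, was represented by mt-Nd1, mt-Nd2, mt-Nd4, mt-Nd5 and mt-Nd6, whose counts summed to 15999 in normoxia and 551 in hypoxia, at a ratio of 0.295 (0.271 to 0.322 on reads, 0.154 to 0.528 on molecules). On reads its members did not move together, though the intervals on molecules of those counted overlap. mt-Nd1 (ENSMUSG00000064341, chromosome M, 2751 to 3707 on GRCm38, as are all mitochondrial positions here), a membrane subunit next to the ubiquinone site, went from 4303 counts in normoxia to 202 in hypoxia, and its ratio was 0.403 (0.348 to 0.464). mt-Nd4 (ENSMUSG00000064363, 10167 to 11544), one of the subunits of the membrane arm that resemble ion antiporters, had 4365 and 195 counts and a ratio of 0.383 (0.330 to 0.442). The pair stayed level with each other, with mt-Nd1 holding 0.986 counts per count of mt-Nd4 in normoxia and 1.04 in hypoxia. For both, the interval on molecules reached above 1 (1.10 and 1.06), and on total counts the ratios were 0.703 and 0.669, within 2-fold, so neither was called lower there.

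mt-Nd2 (ENSMUSG00000064345, 3914 to 4951), also an antiporter-like subunit, went from 3213 counts in normoxia to 36 in hypoxia, and was 10.4-fold lower (ratio 0.096, 0.067 to 0.133 on reads, 0.0018 to 0.666 on molecules). Against mt-Nd1, which lies just upstream of it, mt-Nd2 held 0.747 counts per count in normoxia and 0.178 in hypoxia.

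mt-Nd5 (ENSMUSG00000064367, 11742 to 13565), the largest subunit at the far end of the membrane arm, was counted 3430 times in normoxia and 0 times in hypoxia. With the 0 taken as 3 reads it was 133-fold lower, and 76.4-fold on total counts. Its interval on reads reached up to a ratio of 0.0092, or 0.016 on total counts. At the depth of the hypoxia library 229 counts would match its share in normoxia. Its 1580 CPM (counts as parts of 1 common total per library) in normoxia exceed the 807 CPM that 3 estimated molecules hold in hypoxia. With the 0 taken as 3 molecules its ratio was 0.293, or 0.511 on total counts. The interval on molecules reached up to 0.408, or 0.712 on total counts. Absence from a gene of this abundance was not confined to it: of 137 genes within 2-fold of its normoxia count, 20 (14.6%) had 0 counts in hypoxia, and of 369 genes with at least 1000 counts in normoxia 114 (30.9%) did.

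mt-Nd6 (ENSMUSG00000064368, 13552 to 14070) is the only protein gene of the light strand and codes for a further membrane subunit of complex I. Its counts were 688 in normoxia and 118 in hypoxia. The ratio was 1.47 (1.20 to 1.79 on reads), below the 2-fold limit, and on total counts it was 2.57 (2.09 to 3.13) and met the rule as higher. It rests on 3.00 and 3.03 estimated molecules, and the interval on molecules ran from 0.199 to 10.9. The gene abuts mt-Nd5 tail to tail, and the last 14 bases of each, in capitals in the final 40 bases shown here, are the same stretch of the genome read from opposite strands.
mt-Nd5: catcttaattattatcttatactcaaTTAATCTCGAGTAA
mt-Nd6: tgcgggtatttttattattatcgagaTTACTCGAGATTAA
The kit named in the labels is not described there as one that marks strand, and the strand setting of the counting is not given. Reads from mt-Nd6 and from heavy-strand precursor RNA that runs through its locus therefore cannot be told apart.

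Complex III passes electrons from ubiquinol to cytochrome c, and mt-Cytb (ENSMUSG00000064370, 14145 to 15288) is its one mitochondrially encoded subunit. Its counts were 7393 in normoxia and 58 in hypoxia. The ratio was 0.067 (0.051 to 0.087 on reads, 0.0046 to 0.312 on molecules), the lowest of the 6 members counted in both libraries. Against mt-Nd6, its neighbour among the protein-coding genes, it held 10.7 counts per count in normoxia and 0.492 in hypoxia.

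Complex IV, cytochrome c oxidase, reduces oxygen to water. Its catalytic subunit gene mt-Co1 (ENSMUSG00000064351, 5328 to 6872) had 16535 counts in normoxia, the sixth highest count of any gene (rank 6), and 272 in hypoxia (rank 48). Its ratio was 0.141 (0.125 to 0.159 on reads, 0.055 to 0.306 on molecules). The other subunit genes, mt-Co2 (7013 to 7696) and mt-Co3 (8607 to 9390), had 1 and 6 counts in normoxia, and both were at 0 in hypoxia. The ATP synthase genes mt-Atp6 (7927 to 8607) and mt-Atp8 (7766 to 7969) had 3 and 0, and both were at 0 in hypoxia. Taken as 3 reads, a count of 0 allows up to 1.38 CPM in normoxia and 20.7 CPM in hypoxia. Taken as 3 estimated molecules, it allows up to 316 and 807 CPM, so no ratio was formed for these.

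Read against the whole table, 8 of the 9 measured members were lower, where 75.7% of the 4215 measured genes were, and none was higher, where 11.9% were. The share of members that were lower is thus near that of all genes, most of which had 0 counts in hypoxia. Among genes counted in both libraries 5 of 6 members were lower, where 27.9% of 1108 genes were, and none was higher, where 24.9% were. Those genes were not matched to the members in abundance. The 6 members held at least 688 counts in normoxia, where the median counted gene held 230. With the interval on molecules, 4 members were lower (mt-Co1, mt-Cytb, mt-Nd2 and mt-Nd5), where 1.30% of measured genes were, and none was higher, where 0.190% were. A gene with few molecules cannot meet that rule. The scaling moves these counts. On total counts 6 members were lower and 1 higher, against 71.5% and 16.1% of genes. Scaled to a housekeeping list the members' counts were also 6 and 1, against 71.4% and 16.3%, and likewise on total counts without red cell genes, against 71.8% and 15.9%. With DESeq2 size factors they were 8 and 0, against 75.5% and 12.1%. The higher member was mt-Nd6 each time. Of the 12 members counted in normoxia 6 were at 0 in hypoxia, where 75.0% of genes counted in normoxia were. The median log2 ratio of the 9 measured members was −3.38 with a prior count of 0.5 and −2.83 with each 0 taken as 3 reads, against −7.51 and −2.75 for all measured genes.

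**Figure D3:**
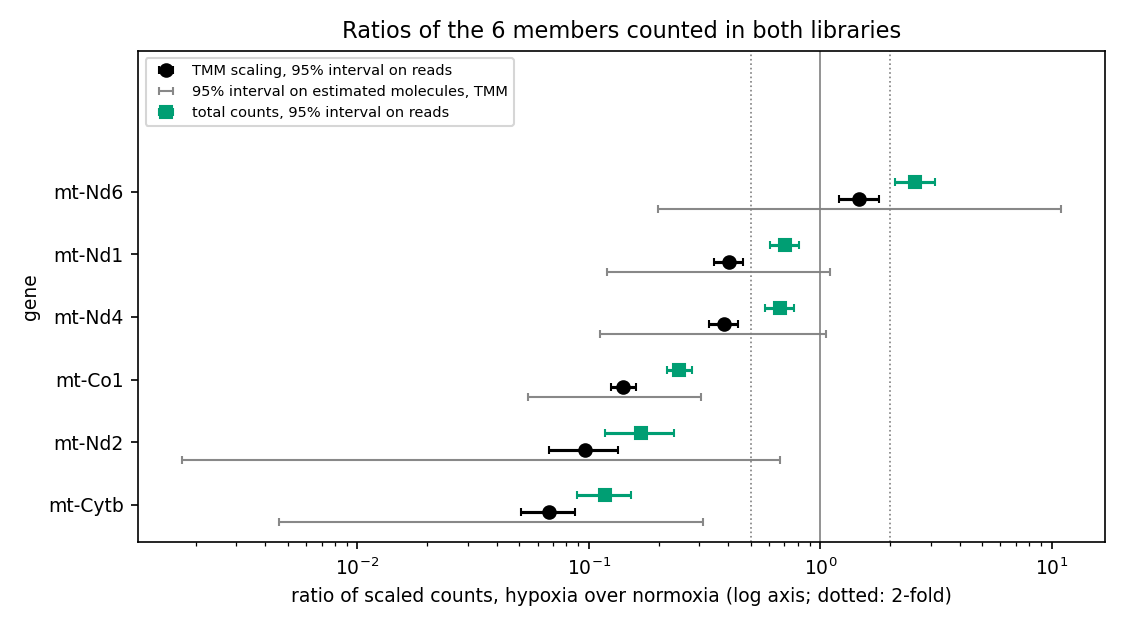
Ratio of scaled counts, hypoxia over normoxia, on a log axis for the 6 members counted in both libraries, with TMM (circles) and total counts (squares) and exact 95% intervals on reads, and with the interval on estimated molecules in grey. The ratios with TMM run from 0.067 for mt-Cytb to 1.47 for mt-Nd6, and the grey intervals of mt-Nd1, mt-Nd4 and mt-Nd6 include 1.

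The make-up of the mitochondrial counts does not depend on how the libraries are scaled, and on reads it differed between them. In hypoxia it rests on 22.6 estimated molecules, with 6.97 for mt-Co1, 5.18 for mt-Nd1, 5 for mt-Nd4 and 1.49 for mt-Cytb. The intervals below are on reads unless named otherwise. On molecules they were taken for mt-Nd6 alone, so whether the other shares differ on molecules is not shown. Of all mitochondrial counts mt-Co1 took 40.9% in normoxia (40.4 to 41.4) and 30.9% in hypoxia (27.8 to 34.04), and mt-Cytb took 18.3% (17.9 to 18.7) and 6.58% (5.04 to 8.43). The shares of mt-Nd1 were 10.6% (10.3 to 11.0) and 22.9% (20.2 to 25.8), and those of mt-Nd4 were 10.8% (10.5 to 11.1) and 22.1% (19.4 to 25.02). mt-Nd5 took 8.49% and 0%, with an upper limit of 0.418% on reads and no limit taken on molecules. Of protein-coding counts, mt-Nd6 took 1.72% in normoxia (1.60 to 1.86) and 13.4% in hypoxia (11.2 to 15.8). On molecules its intervals were 0.357% to 4.95% and 2.88% to 34.3%, which overlap. Counted by complex, complex I genes took 39.6% and 62.5% of mitochondrial counts, complex III 18.3% and 6.58%, and complex IV 40.9% and 30.9%.

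Levels can be compared between genes only per length, for which the deposited TPM serve. Among the 7 measured protein-coding genes mt-Co1 stood highest in normoxia at 9017 TPM, followed by mt-Cytb at 5445, mt-Nd1 at 3788, mt-Nd4 at 2669, mt-Nd2 at 2608, mt-Nd5 at 1584 and mt-Nd6 at 1117. The counting intervals of mt-Nd4 (2590 to 2749) and mt-Nd2 (2519 to 2700) overlap, and those of the other neighbours among these 7 do not. In hypoxia the order was mt-Nd6 at 2201 TPM, mt-Nd1 at 2043, mt-Co1 at 1704, mt-Nd4 at 1370, mt-Cytb at 491 and mt-Nd2 at 336, with mt-Nd5 at 0. There each neighbouring pair of the 6 counted genes overlaps in its counting interval except mt-Nd4 and mt-Cytb. Farther apart in the order, the intervals of mt-Nd6 (1822 to 2636) and mt-Nd1 (1771 to 2345) lie above that of mt-Nd4 (1184 to 1576). All these intervals are on reads, and none was taken for TPM on molecules. In hypoxia mt-Nd6, mt-Nd1 and mt-Nd4 hold 3.03, 5.18 and 5 estimated molecules, so their order is not settled. TPM divides by the whole gene, shared stretches included. Per 1000 windows of 100 bases that occur in no other annotated transcript, mt-Nd4 held 8695 counts in normoxia, above the 7075 of mt-Cytb and below the 16535 of mt-Co1. In hypoxia mt-Nd4 held 388, above the 281 of mt-Nd6, the 272 of mt-Co1 and the 235 of mt-Nd1. The place of mt-Nd4 in the order thus depends on whether its shared stretches are counted as part of its length.

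**Figure D4:**
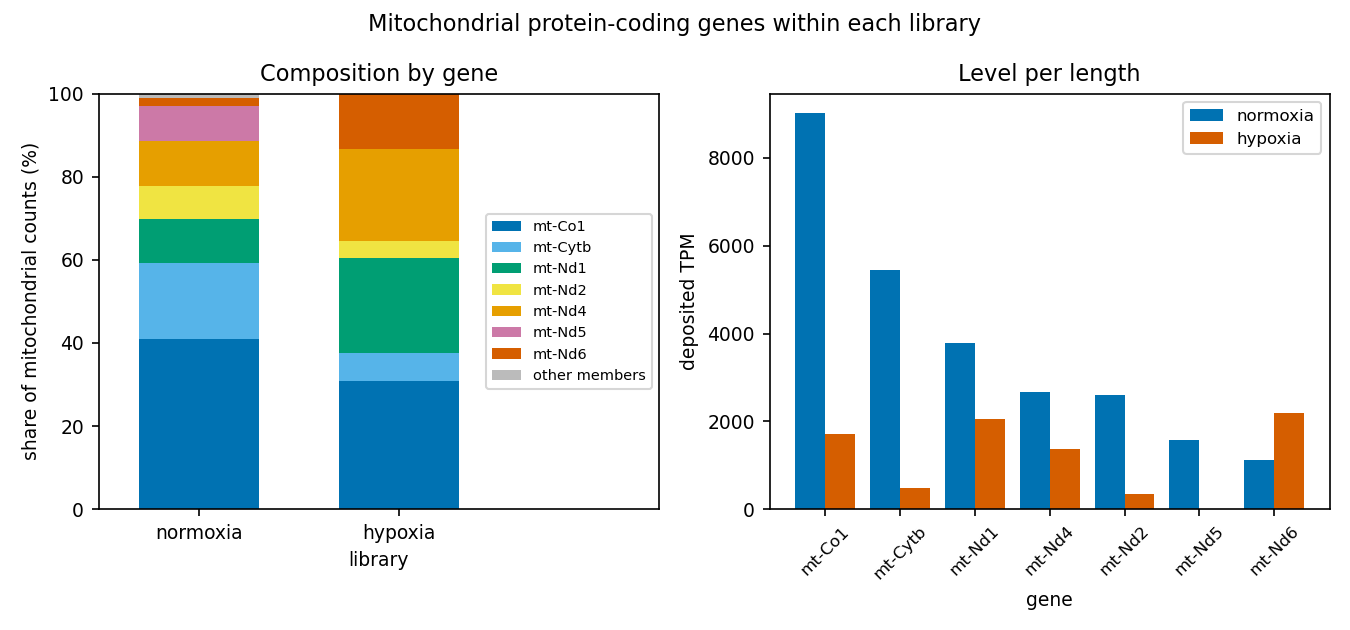
Left, the share of mitochondrial counts taken by each gene in the normoxia and hypoxia libraries. Right, the deposited TPM of the 7 measured protein-coding genes in both libraries. mt-Co1 and mt-Cytb lead in normoxia at 9017 and 5445 TPM, and in hypoxia mt-Nd6 and mt-Nd1 stand at 2201 and 2043 TPM.

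Transfer RNA genes, between 59 and 75 bases long, carry amino acids to the mitochondrial ribosome. In both libraries 20 of the 22 had 0 counts. The 2 that were counted, both in normoxia only, are shown in full.
mt-Tl1: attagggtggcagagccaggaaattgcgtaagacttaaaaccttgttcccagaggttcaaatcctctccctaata
mt-Tp: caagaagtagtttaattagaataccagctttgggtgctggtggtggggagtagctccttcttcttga
mt-Tl1 (ENSMUSG00000064340, 2676 to 2750, heavy strand), a leucine transfer RNA, lies directly before mt-Nd1 and had 140 counts in normoxia and 0 in hypoxia. mt-Tp (ENSMUSG00000064372, 15356 to 15422, light strand), the proline transfer RNA, had 336 and 0. Per length they stood at 1573 TPM (1323 to 1856) and 4225 TPM (3786 to 4702) in normoxia. With the 0 taken as 3 reads they were 5.44-fold and 13.1-fold lower. Their intervals on reads reached up to ratios of 0.229 and 0.095. They stand for 0.611 and 1.47 estimated molecules in normoxia, under 3, so a difference was not detectable on molecules. Of the genes within 2-fold of their normoxia counts, 82.0% and 77.9% were also at 0 in hypoxia. The sources used here do not give the read length, and reads from free transfer RNA and from longer transcripts that hold it cannot be told apart.

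Nuclear genes for the partner subunits gave the smaller part of the counts in normoxia and the larger part in hypoxia. Over the 4 complexes that hold both, mitochondrial genes gave 39937 of the counts in normoxia against 20453 from nuclear subunit genes, and 881 against 2079 in hypoxia. The mitochondrial share was 66.1% (65.8 to 66.5 on reads, 60.1 to 71.8 on molecules) in normoxia and 29.8% (28.1 to 31.4 on reads, 19.8 to 41.4 on molecules) in hypoxia. In complex I it was 77.0% and 48.9%, in complex III 74.1% and 15.4%, and in complex IV 76.7% and 44.1%. The intervals on molecules lie apart in complex III (58.6 to 86.1 and 1.11 to 51.5) and overlap in complex I (67.0 to 85.2 and 30.0 to 68.1) and complex IV (66.9 to 84.8 and 19.9 to 70.6). In the ATP synthase 3 counts were mitochondrial and 8064 nuclear in normoxia, and 0 and 840 in hypoxia. These shares compare the libraries and are not levels of the subunits, since genes differ in length.

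**Figure D5:**
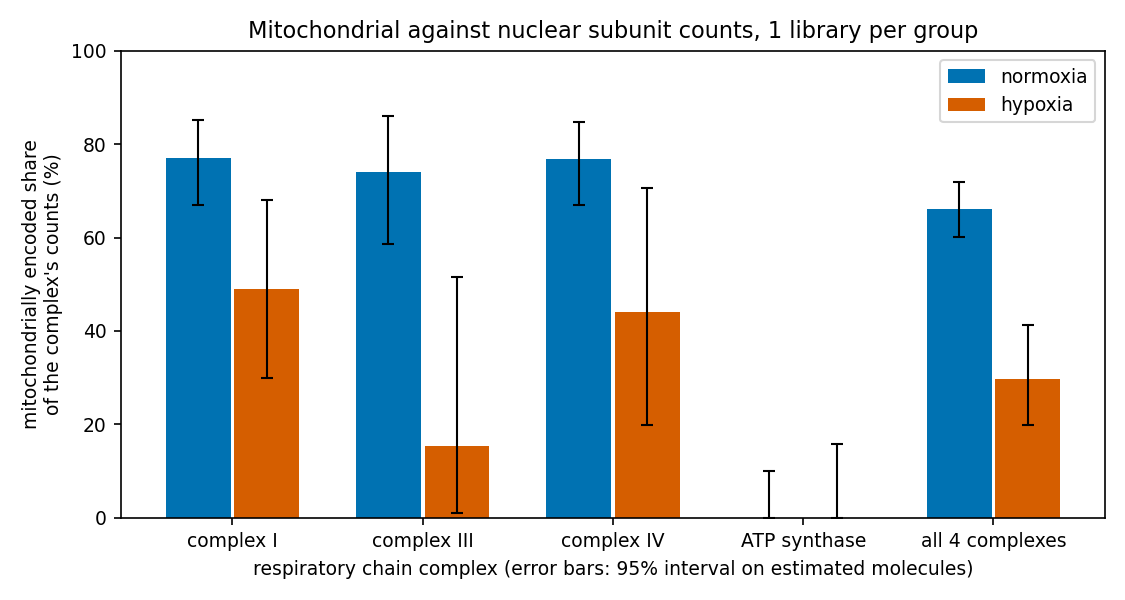
Share of each complex's counts that came from mitochondrially encoded subunits, in percent, for the normoxia and hypoxia libraries, with 95% intervals on estimated molecules as error bars. Over all 4 complexes the share is 66.1% in normoxia and 29.8% in hypoxia, and the bars of the ATP synthase are near 0 in both.

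The nuclear genes that copy, transcribe, process and translate the mitochondrial genome were mostly not counted. The calls in these lists stand beside the 75.7% of all measured genes that were lower and the 11.9% that were higher, and 2883 of the 3192 lower genes had 0 counts in hypoxia. Of 22 genes of mitochondrial DNA replication and transcription, Mterf2 (269 counts in normoxia and 0 in hypoxia), the packaging and transcription factor gene Tfam (80 and 0) and Mterf3 (0 and 17) were the only ones counted, and both measured genes were lower. Of 30 genes of mitochondrial RNA processing and stability, 3 of 4 measured were lower with 0 counts in hypoxia, namely the messenger-stabilising factor Lrpprc (411 in normoxia), the RNase P subunit Hsd17b10 (386) and the exoribonuclease Pnpt1 (343), and the oligoribonuclease gene Rexo2 was higher with 0 and 58. Of 16 translation factors the 2 measured, the membrane insertase gene Oxa1l (473 and 0) and the elongation factor gene Tsfm (215 and 0), were lower. Of 19 aminoacyl-tRNA synthetases, 2 of 3 measured were lower, namely Gars (608 and 0) and Yars2 (104 and 0), and the mitochondrial leucine synthetase gene Lars2 was neither (5649 and 479 counts, ratio 0.727, interval 0.661 to 0.798). The transfer RNAs it charges, mt-Tl1 and mt-Tl2, had 140 and 0 counts in normoxia and none in hypoxia. Of 40 assembly factors of the complexes, 8 of 9 measured were lower, all with 0 in hypoxia, with Tmem126b (535 in normoxia), Cox15 (437) and Acad9 (429) counted most, and Ndufaf5 was neither (466 and 61, ratio 1.12).

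Mitochondrial ribosomal protein genes, which build the ribosome that translates the 13 messengers, differed from the mitochondrially encoded genes in their summed share. The 81 genes took 0.169% of counts in normoxia and 0.342% in hypoxia. That is 1.16-fold with TMM and 2.02-fold on total counts, against 0.187 and 0.326 for the mitochondrially encoded genes. With TMM the sum of all genes stood at 0.573. The other nuclear lists above ran from 0 for translation factors to 0.887 for RNA processing and stability. Nuclear subunit genes ran from 0.590 in complex IV to 1.05 in complex III. Of 19 measured 13 were lower, all with 0 in hypoxia, 2 were higher and 4 neither, beside 75.7% lower and 11.9% higher over all measured genes. The 2 higher were Mrpl57 (113 and 80 counts, ratio 6.07) and Mrpl33 (0 and 101). The genes with most counts in normoxia, Mrpl3 (624), Mrps11 (395), Mrpl9 (324) and Mrps30 (291), had 0 in hypoxia. The medians of these 6 nuclear lists ran from −3.82 to −2.02 on the log2 scale with each 0 taken as 3 reads, against −2.75 for all measured genes and −2.83 for the mitochondrially encoded ones.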

How the data were processed

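Trizol was used for RNA extraction and the NEBNext Ultra II RNA kit for the libraries, per the labels' protocols. STAR 2.5.2b, Subread 1.5.2 (featureCounts) and bcl2fastq 2.20 are named in the submitters' processing notes. The sources used here do not give the strand setting, genome build, annotation or treatment of reads that match several places. What the authors deposited were raw read counts per gene and TPM for the same genes. Up to a common factor, the TPM imply the gene lengths of GENCODE M21 for all 9 measured members.

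The normoxia column was assigned by its number and initial, the hypoxia column by its initial alone. Each group has 1 library, of 2171348 and 145056 counts. TMM factors, 0.757 and 1.32, came from edgeR 4.0.16 in R 4.3.3, and DESeq2 1.42.0 gave the alternative size factors. Intervals are exact (Clopper-Pearson, or conditional binomial for ratios; Poisson for TPM), at 95%, and cover counting error only, since no molecular identifiers are mentioned. The size rule was run on simulated counts drawn as independent reads, without several reads per molecule. That run therefore cannot show how the rule behaves when few molecules give many reads. Shared windows were sought in GENCODE M21 transcripts (GRCm38), since no genome sequence was used here. Members and gene lists were chosen with earlier results of these data known. Named genes are all counted members and copies, and in each nuclear list the 4 with most counts and those called higher. Some of these are left out of the text, among them nuclear subunit genes. Alternatives were other scalings, count minimums, folds, prior counts and subsets of members.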

Additional observations from a re-analysis of the deposited data

How the results depend on the processing

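The ratio of all members, 0.187 with TMM, stayed below 1 under every alternative run. It was 0.326 on total counts, 0.331 scaled to a housekeeping list, 0.318 on total counts without erythroid genes, 0.254 from the deposited TPM and 0.219 without mt-Co1. Chosen after seeing the data, the ratio was 0.205 over protein-coding members with no shared window and 0.204 without mt-Nd5. DESeq2 size factors (0.194), protein-coding members only (0.189) and added nuclear copies (0.186) moved it within its interval. Of 8 members called lower, 4 were with the interval on molecules, and between 6 and 8 under the other alternatives. On total counts and with housekeeping scaling 1 member, mt-Nd6, was called higher, at ratios of 2.57 and 2.61, and mt-Nd1 and mt-Nd4 were no longer called. The share of mt-Co1, different by −10.04 percentage points in hypoxia against normoxia on counts, differed by −7.22 on TPM, −10.5 over protein-coding members and −15.8 per unshared window, the last chosen after seeing the data. The share of mt-Nd6, 11.7 points higher in hypoxia, was 22.8 points higher on TPM, 16.4 without mt-Co1 and 10.9 with light-strand transfer RNA genes over all members, the last also added later. The cause of these moves was not tested beyond what each alternative leaves out. No paired analysis was possible because each group has 1 library, and for the same reason no library could be left out. The low number of estimated molecules in the hypoxia library, 3719 against 9482 in normoxia, limits every gene under about 3 of them.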
